A study of Homo sapiens with 12 samples.

Results

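Regulators of G protein signaling (RGS proteins) were followed through HCT116 and SW480, a pair of cell lines from human colorectal tumours, as the RNA of 9 genes: RGS2, RGS3, RGS4, RGS5, RGS10, RGS14, RGS16, RGS19 and RGS20. The 9 were taken by gene symbol out of 62426 genes in the count table, and all 9 were found. The set was chosen by measured values, the fold changes of RGS4 and RGS5 in HCT116 cells labelled CD44s-OE, to which the other 7 genes were added as relatives. The values of the 9 genes in that group against the other HCT116 groups are therefore a description, without a test.

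The study asked what 2 splice isoforms of the hyaluronan receptor CD44 do to colon cancer cells. CD44s is the standard isoform and CD44v6 carries a variable exon. In each line, cells transfected with a CD44s plasmid (CD44s-OE) or a CD44v6 plasmid (CD44v6-OE), both followed by Geneticin selection, were set beside parental cells. Each of the 6 groups (HCT116 CD44s-OE, HCT116 CD44v6-OE, HCT116 parental, and the same for SW480) had 2 polyA RNA libraries, 12 in all. The labels do not say whether the 2 libraries of a group came from separate cultures, so p-values measure only the spread between these libraries, which may be technical. The count columns of the OE groups are headed POOL, without a statement of what was pooled. No library of cells with an empty vector was among the 12, so the effects of transfection and of Geneticin cannot be told apart from those of the isoform.

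Library totals lay between 43102156 and 52811889 counts. A count of 0 allows up to 6 counts, that is 3 read pairs with both reads counted, or 0.114 to 0.139 CPM, the usual scaling of counts to library size. This floor covers counting error only. CD44 itself, summed over all isoforms, did not separate the OE groups upwards from parental cells: CD44s-OE overlapped with them and CD44v6-OE lay lower. It lay at 516 to 571 CPM in HCT116 CD44s-OE and at 503 to 507 CPM in HCT116 CD44v6-OE, against 539 to 540 CPM in HCT116 parental cells. In SW480 it lay at 179 to 205 CPM in CD44s-OE and at 134 to 146 CPM in CD44v6-OE, against 161 to 187 CPM in parental cells. A sum over isoforms cannot show a change in their shares, so the count table does not show the ectopic isoforms. The paper measured CD44s and CD44v6 in its OE cells by RT-qPCR, set against the constitutive exons, and by western blot. Here CD44s-OE and CD44v6-OE name libraries by their labels throughout.

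Many receptors for hormones, lipids, chemokines and proteases act through heterotrimeric G proteins, whose alpha subunit is switched on by GTP. RGS proteins share a domain that speeds up GTP hydrolysis by the alpha subunit and so shortens the signal. The 9 genes fall into 3 subfamilies. RGS2, RGS3, RGS4, RGS5 and RGS16 belong to R4, mostly small proteins acting on Gi and Gq. RGS10 and RGS14 belong to R12, and RGS14 also carries Ras-binding domains and a GoLoco motif that binds inactive Gi. RGS19 and RGS20 belong to RZ, which act on Gi and Gz. RGS5 is best known as a marker of pericytes.

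RGS4 and RGS5 are neighbours on chromosome 1 of hg19. RGS4 runs on the plus strand from 163038565 to 163046592 and RGS5 on the minus strand from 163080911 to 163291581, so that their lower ends lie 42346 bases apart. The sequences before their start sites are shown because the 2 genes moved together in HCT116. Each is the 250 bases before the start of the canonical transcript, out of 4 start windows of RGS4 and 2 of RGS5 in RefSeq (GRCh38.p14), found once each in GRCh37. In GRCh37 the RGS4 sequence lies at chr1:163038901-163039150 on the plus strand and that of RGS5 at chr1:163172707-163172956 on the minus strand. Capitals mark matches to CCAAT and TATANA on either strand.
RGS4: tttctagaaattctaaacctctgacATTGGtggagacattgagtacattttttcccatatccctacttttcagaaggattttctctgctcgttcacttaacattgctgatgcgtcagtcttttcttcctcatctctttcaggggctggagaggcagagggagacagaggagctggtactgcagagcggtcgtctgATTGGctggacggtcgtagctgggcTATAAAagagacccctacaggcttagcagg
RGS5: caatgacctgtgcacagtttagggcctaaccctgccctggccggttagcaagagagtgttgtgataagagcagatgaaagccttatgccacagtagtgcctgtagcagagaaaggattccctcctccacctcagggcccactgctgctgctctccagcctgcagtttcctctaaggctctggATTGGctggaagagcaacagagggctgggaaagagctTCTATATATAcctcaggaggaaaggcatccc

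Both sequences held a TATA element just before the start. In RGS4 it was TATAAA, its first base 30 bases before the start, and in RGS5 it was a run of overlapping matches from 31 to 22 bases before the start. TATANA was in 17.7% of all 35116 RefSeq windows of this length and CCAAT in 32%. The longest run that the RGS4 and RGS5 sequences had in common was GATTGGCTGGA, 11 bases long, which holds CCAAT read on the other strand. It began 56 bases before the start of RGS4 and 69 before that of RGS5. In this direction alone, 0.0797% of all windows held it, whereas the motif shares cover both strands. The run was picked as the longest in common, so its share is not a test. These motifs and the run were looked for after the sequences had been read.

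The E-box CACCTG, bound by ZEB and SNAI factors, was in neither sequence. Nor were the AP-1 motif TGANTCA, the letters of the cAMP response element TGACGTCA, or their reverse strands. Over all windows, CACCTG was in 17.5%, TGANTCA in 6.57% and TGACGTCA in 1.65%. Among the 18 windows of the 8 genes searched, 3 held CACCTG, 1 each at RGS2, RGS3 and the other start of RGS5. Gene counts do not tell which start was used.

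Levels per length gave the lines 2 different orders. In parental HCT116 cells, RGS10 led with 42.1 ± 2.31 CPM per kb of exonic length (SD, n = 2), followed by RGS19 with 21.4 ± 4.23, RGS2 with 12.99 ± 5.41, RGS14 with 6.59 ± 1.11 and RGS3 with 3.83 ± 0.0463 CPM per kb. RGS16, RGS20, RGS5 and RGS4 came last, at 2.68, 1.21, 0.237 and 0.0557 CPM per kb. Each of these 9 genes lay above the next in both libraries. In parental SW480 cells, RGS19 led with 44.5 ± 6.15 CPM per kb, followed by RGS14 with 15.3 ± 7.36, RGS10 with 5.13 ± 1.49, RGS3 with 3.60 ± 0.509 and RGS16 with 3.05 ± 0.643 CPM per kb. RGS3 and RGS16 overlapped there. RGS2, RGS5, RGS4 and RGS20 were at 0.0478, 0.0348, 0.00206 and 0 CPM per kb.

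In both OE groups of HCT116 the 4 highest genes per length kept the parental order, and the changes lay below them. In CD44s-OE, RGS5 stood sixth at 2.57 ± 0.760 CPM per kb, overlapping RGS3 at 2.83 ± 0.395, and RGS16 stood last at 0.860 ± 0.269, overlapping RGS4 at 0.896 ± 0.170 CPM per kb. In CD44v6-OE the order of all 9 was that of parental cells. In SW480 the 5 highest genes kept the parental order in both OE groups.

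**Figure D1:**
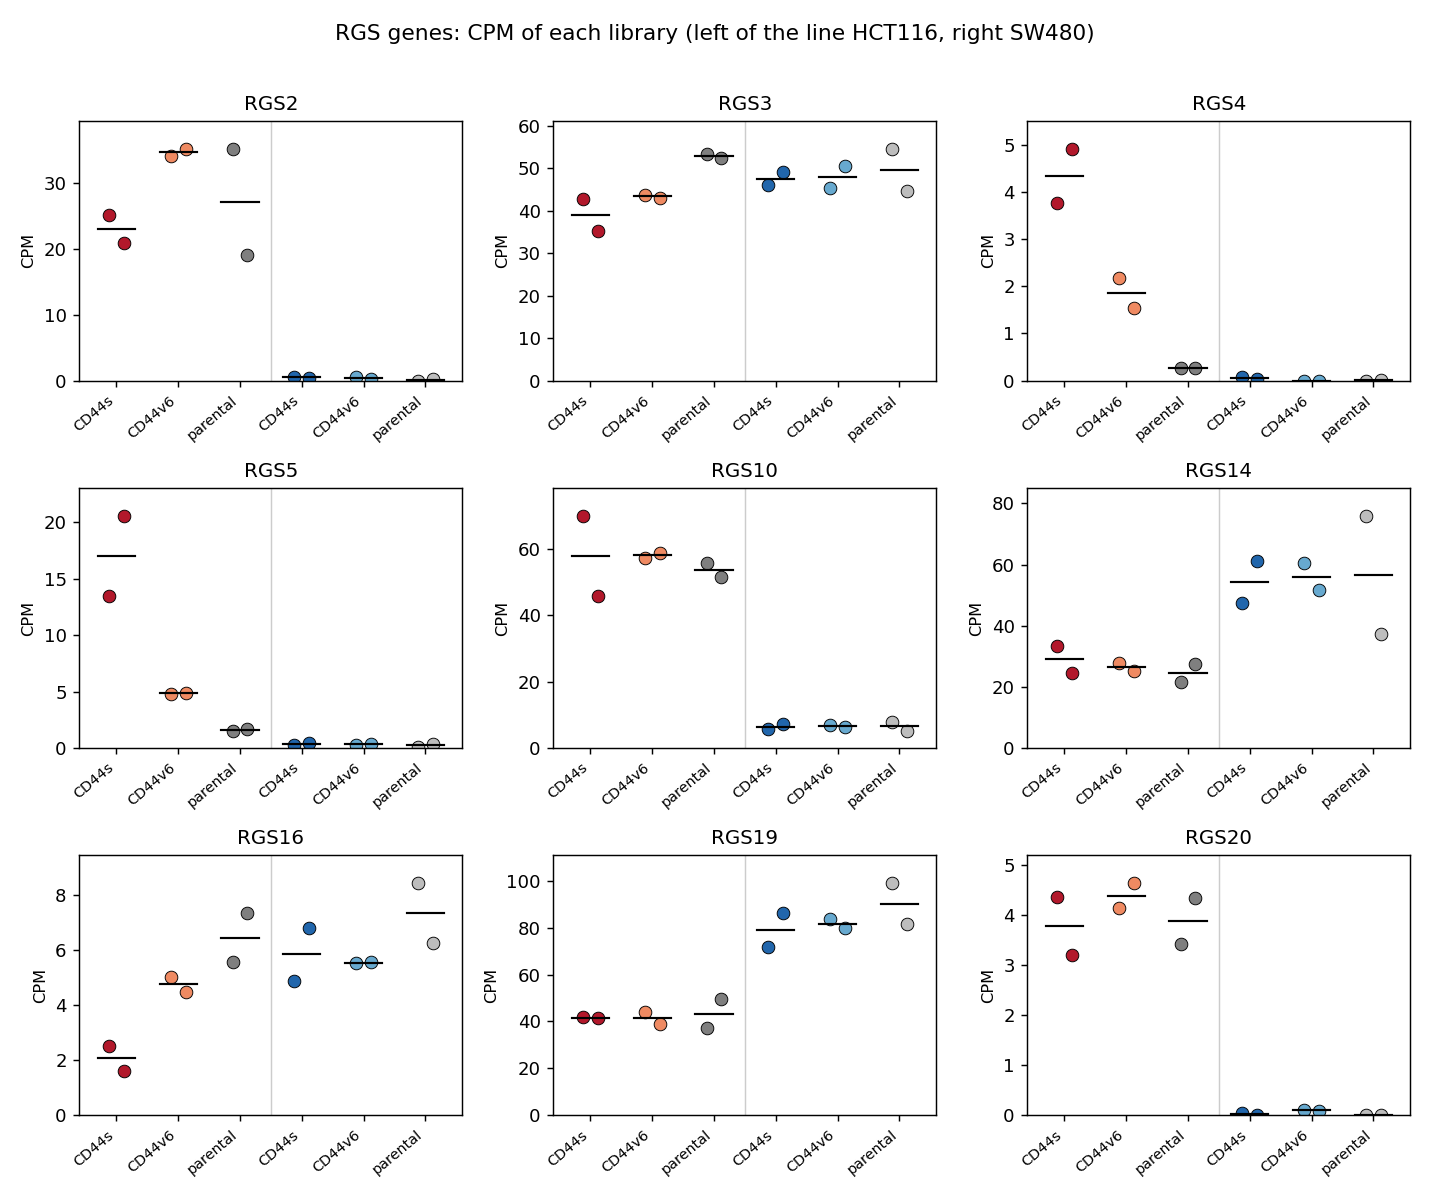
CPM (TMM-scaled over the 12 libraries) of each RGS gene in each library, 1 panel a gene. Points are libraries and bars the mean of 2, with HCT116 left and SW480 right of the grey line and the OE groups left of the parental group. RGS4 and RGS5 were highest in HCT116 CD44s-OE, where RGS16 was lowest, while RGS2, RGS4, RGS5 and RGS20 stayed near 0 in every SW480 library.

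RGS4 and RGS5, both R4 members, were chosen for their rise in HCT116 CD44s-OE, so that they stand out there is not a result. RGS4 had 187 and 259 counts (3.75 and 4.91 CPM) in CD44s-OE and 114 and 83 counts (2.17 and 1.55 CPM) in CD44v6-OE, against 14 and 14 counts (0.265 and 0.273 CPM) in parental cells. RGS5 had 671 and 1085 counts (13.5 and 20.6 CPM) in CD44s-OE and 252 and 262 counts (4.79 and 4.89 CPM) in CD44v6-OE, against 79 and 84 counts (1.497 and 1.64 CPM) in parental cells. For each gene the CD44v6-OE libraries lay between those of the other 2 groups. Between CD44s-OE and parental cells, libraries of 51.5% of all genes tested did not overlap. Since these are bulk samples, more cells with the RNA and more RNA per cell cannot be told apart.

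The values that chose the genes were these. Against parental cells, the log2 fold change in HCT116 CD44s-OE was 4.00 (SE 0.37) for RGS4 and 3.44 (SE 0.27) for RGS5. RGS16, an R4 member induced in many cell types by the signals it limits, went the other way. It had 126 and 85 counts (2.53 and 1.61 CPM) in CD44s-OE and 264 and 241 counts in CD44v6-OE, against 293 and 377 counts in parental cells. Its log2 fold change in CD44s-OE against parental cells was -1.64 (SE 0.29). This was -1.37 without CD44s-OE replicate 2 and -1.43 without parental replicate 2, both short of 1.5, and -1.21 with limma on the variance-stabilized values.

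A gene was called where its adjusted p was under 0.1 and its log2 fold change beyond 1.5 in size. In HCT116 CD44s-OE against parental cells, 2 of the 9 genes were called higher and 1 lower, where 2.71% of the 17335 genes tested were called higher and 0.387% lower. RGS4 and RGS5 were chosen for rising here, so nothing is read from these counts. The median log2 fold change of the 9 was -0.04, against 0.04 over all genes tested. The other 6 lay between -0.44 (SE 0.15) for RGS3 and 0.25 (SE 0.19) for RGS14. Beside the 3 called genes, RGS3 was the only other of the 9 whose libraries did not overlap, as did not those of 51.5% of all genes tested, with 2136 and 1853 counts in CD44s-OE against 2811 and 2684 counts in parental cells. The direction of RGS2 turned on single libraries, since it had 1252 and 1100 counts in CD44s-OE against 1852 and 980 counts in parental cells.

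Between the isoforms in HCT116, CD44s-OE against CD44v6-OE, the log2 fold change was 1.82 (SE 0.24) for RGS5, 1.22 (SE 0.31) for RGS4 and -1.20 (SE 0.29) for RGS16. RGS2, with a log2 fold change of -0.59 (SE 0.25), was lower in both CD44s-OE libraries than in both CD44v6-OE libraries. The other 5 lay between -0.21 and 0.13. RGS5 alone among the 9 was called, in a comparison where 0.288% of genes were called in either direction, and nothing is read from this either, since RGS5 was chosen by its level in CD44s-OE. This count was 0 without CD44s-OE replicate 2, CD44v6-OE replicate 1 or CD44v6-OE replicate 2. It was 2 without CD44s-OE replicate 1, with RGS16 added as lower.

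In HCT116 CD44v6-OE against parental cells, 2 of the 9 genes were called higher and none lower, where 0.738% of genes were called higher and 0.0404% lower. This comparison uses the parental libraries of the one that chose the genes. Low parental values of RGS4 and RGS5 were favoured by that choice, so their calls and p-values here are not an independent test. RGS4 rose by 2.78 (SE 0.37, adjusted p = 0.0139, edgeR quasi-likelihood test) and RGS5 by 1.63 (SE 0.26, adjusted p = 0.0275, same test) on the log2 scale, each higher in both libraries. The median over the 9 genes was 0.12, against 0.00081 over all genes tested. Of the 7 genes that did not pass, RGS16 lay lowest, at -0.44 (SE 0.28, adjusted p = 0.611 by edgeR), and RGS2 highest, at 0.36 (SE 0.25, adjusted p = 0.657 by edgeR).

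The RGS5 call rested on all 4 libraries compared and the RGS4 call on 3 of them. Left out one at a time, the libraries CD44v6-OE replicate 1, parental replicate 1 or parental replicate 2 took the RGS4 call away, with adjusted p by edgeR of 0.113, 0.123 and 0.204. Leaving out any one of the 4 took the RGS5 call away, with adjusted p by edgeR between 0.167 and 0.232. The log2 fold changes then stayed at 2.51 to 2.99 for RGS4 and 1.56 to 1.69 for RGS5.

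**Figure D2:**
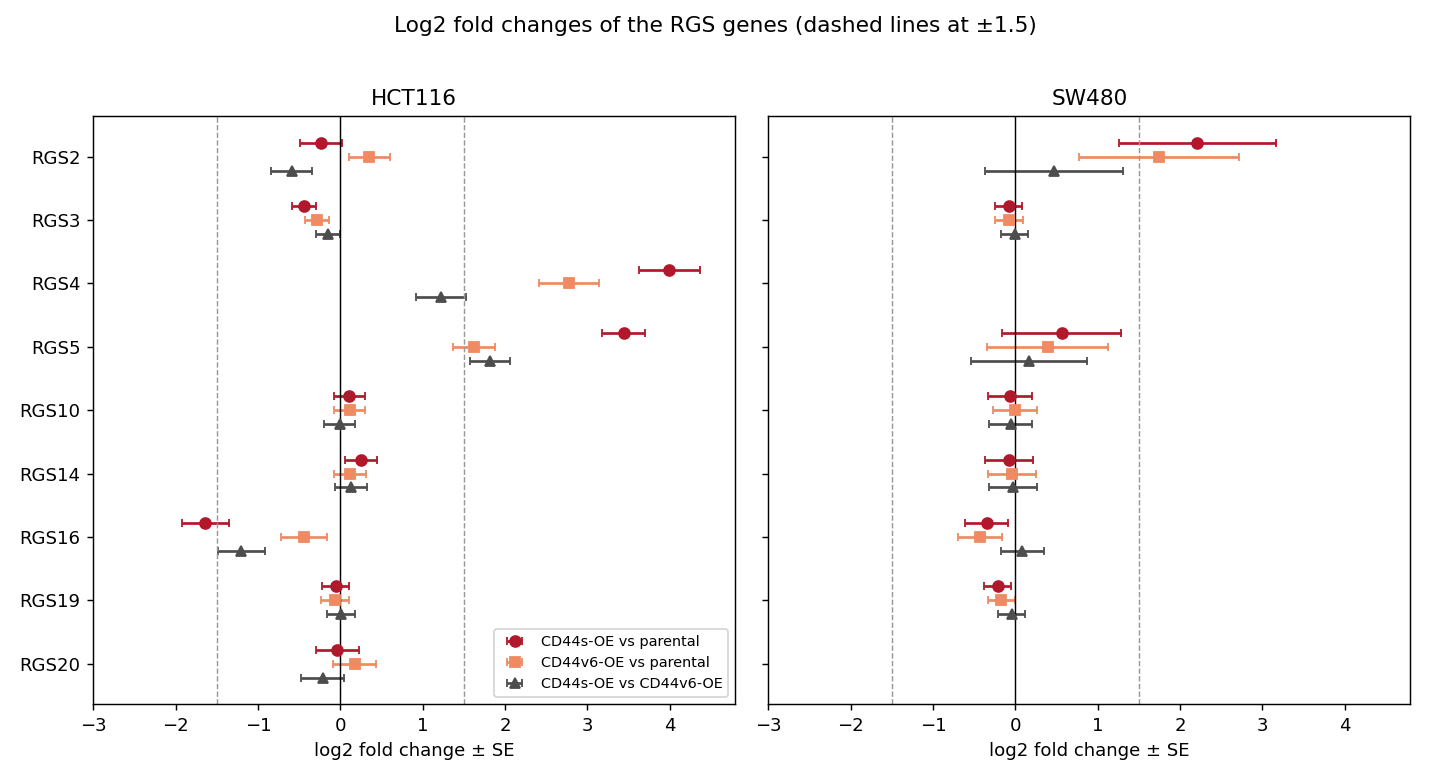
Log2 fold change with its standard error (edgeR) for each RGS gene in HCT116 (left) and SW480 (right). Circles stand for CD44s-OE against parental, squares for CD44v6-OE against parental and triangles for CD44s-OE against CD44v6-OE. RGS4 and RGS5 lie past the dashed line at 1.5 in both OE groups of HCT116, and RGS4 and RGS20 are not drawn for SW480 because their counts there were at or under the floor.

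The genes on either side of the pair did not share the change. HSD17B7, an enzyme of steroid and cholesterol synthesis, was at 0.05 in HCT116 CD44s-OE and 0.09 in HCT116 CD44v6-OE against parental cells on the log2 scale. NUF2, a kinetochore gene whose span overlaps that of RGS5 on the other strand, was at 0.51 and 0.18 in the same comparisons. Neither passed the thresholds in any comparison within a line. Of all neighbours of the 9 genes that were tested, only RGS4 and RGS5 did, each as the neighbour of the other. Both were chosen for rising, and over all genes only 536 of 17335 were called in HCT116 CD44s-OE against parental cells. Nothing is therefore read from the count of neighbours called. RGS5 also overlaps RGS5-AS1 on the opposite strand and an unnamed gene on its own strand, so reads of that shared stretch are uncertain. Per kb, RGS5 stood 2.62 and 3.06 times above RGS4 in the CD44s-OE libraries and 1.61 and 2.30 times above it in the CD44v6-OE libraries, against 4.12 and 4.38 times in parental libraries.

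**Figure D3:**
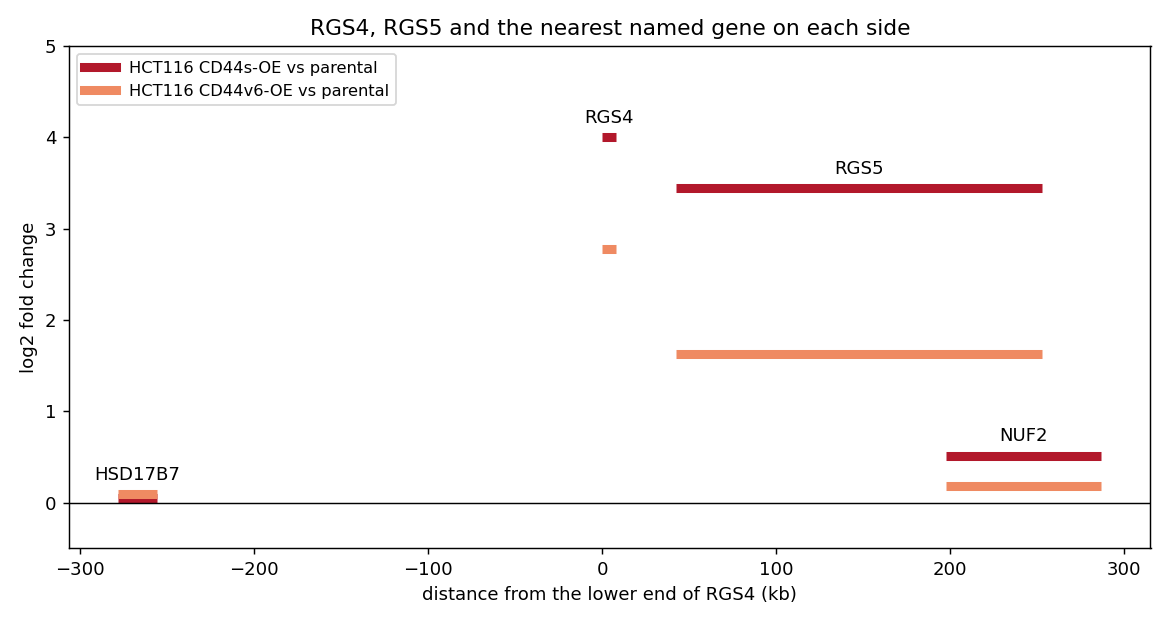
Log2 fold change in HCT116 of RGS4, RGS5 and the nearest named gene on each side, drawn along the chromosome as distance from the lower end of RGS4 in kb, with each bar as long as its gene. Dark bars are CD44s-OE against parental and light bars CD44v6-OE against parental. RGS4 (4.00 and 2.78) and RGS5 (3.44 and 1.63) stand above HSD17B7 (0.05 and 0.09) and NUF2 (0.51 and 0.18).

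Because RGS5 marks pericytes, a list of 9 other mural cell markers was read beside it. Their summed level was 156 to 218 CPM in HCT116 CD44s-OE and 164 to 175 CPM in CD44v6-OE, against 141 to 176 CPM in parental cells. Of the 9, 7 were tested in HCT116. In CD44s-OE 0 were called higher than in parental cells and 1 lower, and in CD44v6-OE 0 were called by edgeR. The background shares were 2.71% (higher) and 0.387% (lower) for CD44s-OE, and 0.738% and 0.0404% for CD44v6-OE. At such shares, 0 of 7 is no result about these markers. Above the floor in both libraries were 7 of the 9 in parental cells, 6 in CD44s-OE and 7 in CD44v6-OE. Across the HCT116 libraries, CSPG4 had 1583 to 3631 counts, NOTCH3 2048 to 3525, MCAM 2280 to 2889 and ACTA2 227 to 606. KCNJ8 was at 0 in both OE groups and ABCC9 at 0 in CD44v6-OE and in parental cells. PDGFRB, the defining receptor of pericytes, had 7 and 6 counts in CD44s-OE and 18 and 20 counts in CD44v6-OE, against 39 and 15 counts in parental cells. The muscle filament gene DES lay the other way, with 672 and 436 counts in CD44s-OE and 438 and 476 counts in CD44v6-OE, against 284 and 251 counts in parental cells.

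A list of 7 fibroblast markers summed to 32.1 to 58.1 CPM in CD44s-OE and 32.4 to 35.2 CPM in CD44v6-OE, against 13.1 to 18.5 CPM in parental cells. The 2 OE groups overlapped in this sum, and both lay above parental cells. DCN and LUM were at 0 in both OE groups. Only 2 of the 7 were tested, and 1, COL3A1, was called higher in each OE group. At 6 and 6 counts in parental cells, COL3A1 passed the low-count filter only through the OE groups, so its calls are not read. Over all genes, 2.71% were called higher in CD44s-OE and 0.738% in CD44v6-OE. COL1A1 had 1266 and 1916 counts in CD44s-OE and 1770 and 1621 counts in CD44v6-OE, against 962 and 680 counts in parental cells, and COL3A1 had 381 and 1053 counts in CD44s-OE and 44 and 54 counts in CD44v6-OE, against 6 and 6 counts in parental cells. Epithelial markers, 7 in all, summed to 5844 to 7093 CPM in CD44s-OE and 6874 to 7574 CPM in CD44v6-OE, against 6848 to 8243 CPM in parental cells. Of these 7, all tested, edgeR called 1 lower in CD44s-OE against parental cells and 0 in CD44v6-OE. Over all genes, 0.387% were called lower in that CD44s-OE comparison. The 7 did not all move the same way in CD44s-OE. VIL1 had 10 and 21 counts there against 4 and 2 counts in parental cells, and KRT19 had 65278 and 73284 against 66672 and 61154 counts. The adhesion genes CDH1 and EPCAM were lower without overlap between CD44s-OE and parental cells, where libraries of 51.5% of all genes did not overlap. CDH1 had 1104 and 769 counts in CD44s-OE and 2641 and 2606 counts in CD44v6-OE, against 3439 and 2393 counts in parental cells. EPCAM had 3991 and 6364 counts in CD44s-OE and 9374 and 9488 counts in CD44v6-OE, against 11143 and 11911 counts in parental cells. Their part in the RGS values was not tested.

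In SW480 none of the 9 genes was called in any comparison between groups. RGS4 and RGS20 did not pass the filter on low counts. RGS4 had 4 and 2 counts in CD44s-OE and 0 and 0 counts in CD44v6-OE, against 0 and 1 counts in parental cells. RGS20, an RZ member known mostly from brain, had 2 and 0 counts in CD44s-OE and 5 and 4 counts in CD44v6-OE, against 0 and 0 counts in parental cells. All of these were at or under the floor, so no fold is given and a change was not detectable at this depth.

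Of the 7 genes tested in SW480, 0 were called in CD44s-OE against parental cells by edgeR, DESeq2 and limma, and 1 had an unadjusted p under 0.05. In that comparison 2.03% of the 17539 genes tested were called. An unadjusted p under 0.05 was found there for 2786 of the 17539, so 1 of 7 is near the share of all genes. The same counts were 0 called and 0 under 0.05 both for CD44v6-OE against parental cells, where 0.416% of genes were called, and for CD44s-OE against CD44v6-OE, where 1.02% were. Over all genes, 1527 had an unadjusted p under 0.05 in the former and 1894 in the latter. At such shares, 0 called among 7 is no result about these genes. With the comparisons in the order given, the median log2 fold changes of the 7 were -0.08, -0.04 and -0.01, against 0.0022, -0.01 and 0.01 over all genes tested.

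The gene with the unadjusted p under 0.05 was RGS2, which acts preferentially on Gq. It had 26 and 24 counts (0.546 and 0.474 CPM) in SW480 CD44s-OE and 24 and 10 counts in CD44v6-OE, against 0 and 10 counts in parental cells. Its log2 fold change in CD44s-OE against parental cells was 2.21 (SE 0.95, adjusted p = 0.284 by edgeR), and in CD44v6-OE against parental cells it was 1.74 (SE 0.97, adjusted p = 0.676 by edgeR). Without parental replicate 2, which left the parental library with 0 counts, RGS2 was called in both, with adjusted p by edgeR of 0.0134 and 0.0753. RGS2 lies within an unnamed gene on the opposite strand, ENSG00000285280, from which it was counted apart by strand.

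RGS5 had 13 and 22 counts in SW480 CD44s-OE and 13 and 16 counts in CD44v6-OE, against 4 and 18 counts in parental cells, and the 3 groups overlapped. Its log2 fold change was 0.56 (SE 0.73) in CD44s-OE and 0.39 (SE 0.73) in CD44v6-OE against parental cells. Beside them stand the HCT116 values of 3.44 and 1.63. RGS16 was at -0.35 (SE 0.26) in CD44s-OE and -0.43 (SE 0.26) in CD44v6-OE against SW480 parental cells, beside -1.64 and -0.44 in HCT116. RGS3, RGS10, RGS14 and RGS19 lay between -0.21 and -0.0022 in both of these comparisons.

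Whether the CD44v6-OE effect differed between the lines was tested as SW480 minus HCT116, and 0 of the 9 genes passed an adjusted p of 0.1 by edgeR or by DESeq2, where 0.409% of genes did by edgeR. With limma 1 passed, RGS4. For RGS5 the difference was -1.23 (SE 0.63, adjusted p = 0.625 by edgeR). Only RGS4 and RGS20 had an unadjusted p under 0.05, with adjusted p by edgeR of 0.540 and 0.304, and both were at or under the floor in SW480. Over all genes, 1733 of 19567 had an unadjusted p under 0.05.

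The parental lines were also compared with each other. In parental SW480 against parental HCT116 cells, 5 of the 9 genes were called lower and 0 higher, where 12.9% of the 19567 genes tested were called lower and 16.1% higher. The median log2 fold change of the 9 was -2.69, against 0.04 over all genes tested. RGS4 and RGS20 passed the low-count filter only through HCT116 libraries, so this median is not read as a trait of the family. The libraries of 7 of the 9 did not overlap, as did not those of 75.9% of all genes tested. That is near the share of all genes, so nothing is read from it. All 3 subfamilies were among the 5: RGS2, RGS4 and RGS5 of R4, RGS10 of R12 and RGS20 of RZ.

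RGS10, a small R12 protein of immune cells and brain, had 312 and 260 counts (7.88 and 5.19 CPM) in parental SW480, against 2937 and 2639 counts (55.7 and 51.5 CPM) in parental HCT116. Its log2 fold change was -3.04 (SE 0.24, adjusted p = 1.44e-07 by edgeR). RGS2 had 0 and 10 counts in parental SW480, against 1852 and 980 counts in parental HCT116, for a log2 ratio of -7.91 (SE 0.59, adjusted p = 2.75e-07 by edgeR). RGS5 had 4 and 18 counts in parental SW480, against 79 and 84 counts in parental HCT116, for a log2 ratio of -2.69 (SE 0.44, adjusted p = 0.000154 by edgeR).

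RGS20 had 0 and 0 counts in parental SW480, against 181 and 223 counts (3.43 and 4.35 CPM) in parental HCT116. It was at least 29.3-fold lower in SW480, with the floor taken per library (adjusted p = 3.22e-07 by edgeR). RGS4 had 0 and 1 counts in parental SW480, against 14 and 14 counts in parental HCT116, a ratio of 24.1-fold lower in SW480 with a 95% exact binomial interval of 3.99 to 987 (adjusted p = 0.00105 by edgeR). That interval covers counting error only, not the spread between libraries, and is too narrow because both reads of a pair were counted. RGS4 and RGS20 passed the low-count filter only through HCT116 libraries, the side where they are high, which limits what their p-values here can say. The 5 genes called lower were lower in all 6 SW480 libraries than in all 6 HCT116 libraries, the OE groups included. The share of all genes that separate so over the 12 libraries was not counted, and it was 75.9% between the parental lines alone. Nothing is read from this separation.

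RGS14 and RGS19 lay higher in SW480 and under the minimum fold change. RGS14 had 3005 and 1870 counts (75.9 and 37.3 CPM) in parental SW480, against 1135 and 1400 counts (21.5 and 27.3 CPM) in parental HCT116. Its log2 fold change was 1.21 (SE 0.28, adjusted p = 0.00253 by edgeR), and the 2 SW480 libraries lay further apart than the HCT116 ones. Without SW480 parental replicate 2 it was 1.64 and past the minimum. RGS19, also named GAIP, which binds Gi3, had 3921 and 4078 counts (99.1 and 81.4 CPM) in parental SW480, against 1968 and 2533 counts (37.3 and 49.4 CPM) in parental HCT116 (log2 fold change 1.06, SE 0.17, adjusted p = 0.000121 by edgeR). Both genes were higher in all 6 SW480 than in all 6 HCT116 libraries, again without a share over all genes beside it.

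RGS3 and RGS16 overlapped between the parental lines. RGS3 was at 54.6 and 44.7 CPM in SW480, against 53.3 and 52.4 CPM in HCT116, and RGS16 at 8.44 and 6.25 CPM in SW480, against 5.55 and 7.36 CPM in HCT116. Their log2 fold changes were -0.09 (SE 0.15) and 0.18 (SE 0.28).

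**Figure D4:**
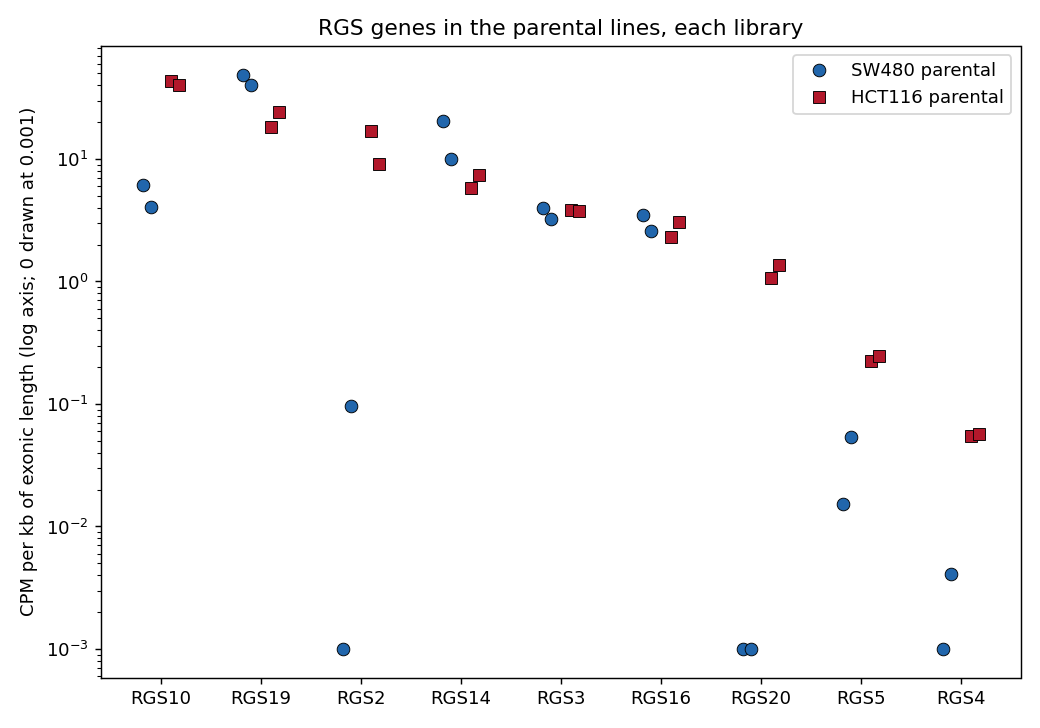
CPM per kb of exonic length of the 9 RGS genes in parental SW480 (circles) and parental HCT116 cells (squares) on a log axis, each point a library, ordered by the HCT116 level. A level of 0 is drawn at 0.001. RGS10, RGS2, RGS20, RGS5 and RGS4 lie lower in SW480, RGS19 and RGS14 higher, and RGS3 and RGS16 overlap.

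The genes whose log2 CPM over the 12 libraries ran most like RGS4 and RGS5 were looked up among 14560 genes. For RGS4 they were LTK (r = 0.981), MICAL1, ANGPT2, RGS5 (r = 0.974) and CCDC68, and for RGS5 they were LTK (r = 0.985), TUBG2, ADAMTS13, TMEM175 and SGSM2. The libraries fall into 2 clusters by line and these correlations span both, so they describe the libraries and carry no test. LTK, a receptor tyrosine kinase, averaged 26.4 CPM in HCT116 CD44s-OE and 14.9 CPM in CD44v6-OE, against 5.61 CPM in parental HCT116, and at most 1.62 CPM in an SW480 group. ANGPT2, an angiopoietin that modulates the TIE2 receptor, averaged 10.1 CPM in the CD44s-OE and 5.06 CPM in the CD44v6-OE libraries, against 1.57 CPM in parental HCT116.

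Other members of the family were not called within a line. Of 16 other genes with an RGS domain, 8 were tested in HCT116 and 7 in SW480, and none was called in any of the 6 comparisons by edgeR. Over all genes, 536 of 17335 were called in HCT116 CD44s-OE against parental cells and 356 of 17539 in SW480 CD44s-OE against parental cells. At such shares, 0 called among 8 or 7 genes is no result about the family. The median log2 fold change of the other RGS-domain genes against HCT116 parental cells was 0.34 in CD44s-OE and 0.21 in CD44v6-OE. Over all genes tested it was 0.04 and 0.00081. Single genes lay between -0.11 and 1.23 in the CD44s-OE comparison and between -0.56 and 0.90 in the CD44v6-OE comparison. Between the parental lines, 2 of 9 tested were called higher in SW480 and 2 lower. Over all genes, 16.1% were called higher and 12.9% lower. The 4 RGS-domain genes called are named after their values were seen. RGS11 of the R7 subfamily (log2 fold change 5.65, adjusted p = 2.76e-05 by edgeR) and AXIN2, a scaffold of the beta-catenin destruction complex and a Wnt target (4.14, adjusted p = 1.58e-09 by edgeR), were higher in SW480. RGS6 of R7 and RGS17 of RZ were lower in SW480, at -6.33 and -6.61 (adjusted p = 7.16e-06 and 1.07e-06 by edgeR).

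Of the G protein alpha subunits on which these proteins act, 1 of 13 tested was called higher in HCT116 CD44s-OE against parental cells. Over all genes, 2.71% were called higher there. None was called in the other HCT116 comparisons or in SW480. In SW480 CD44s-OE against parental cells 356 of 17539 genes were called, so this absence is no result about the subunits. The alpha subunit called was GNAT1, transducin of rod cells, with 4 and 12 counts in CD44s-OE against 0 and 0 counts in parental cells (adjusted p = 0.0682 by edgeR). In CD44v6-OE it had 7 and 11 counts and was not called. Its counts are near the floor, and it passed the low-count filter only through OE libraries, so its call is not read.

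Of the beta and gamma subunits, 0 of 11 tested were called in HCT116. Over all genes, 536 of 17335 were called there in CD44s-OE against parental cells, so 0 of 11 is no result about these subunits. In SW480 CD44s-OE, 2 of 12 were called higher against parental cells, and the same 2 against CD44v6-OE. Over all 17539 genes tested, 244 were called higher against parental cells and 51 against CD44v6-OE. The gamma subunit GNG11 had 2495 and 4147 counts in SW480 CD44s-OE and 678 and 455 counts in CD44v6-OE, against 438 and 960 counts in parental cells, and rose by 2.13 (SE 0.32, adjusted p = 0.0108 by edgeR) on the log2 scale. The gamma subunit GNG2 had 156 and 116 counts in SW480 CD44s-OE and 6 and 32 counts in CD44v6-OE, against 10 and 6 counts in parental cells, and rose by 3.90 (SE 0.71, adjusted p = 0.018 by edgeR).

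Within the lines, 1 effector and 0 modulators of G proteins were called by edgeR. PLCB1, a phospholipase C driven by Gq, was the only one of 12 effectors tested to be called in SW480, with 30 and 26 counts in CD44s-OE against 0 and 5 counts in parental cells (adjusted p = 0.0761 by edgeR). It was at much the same level, 32 and 25 counts, in CD44v6-OE. Its parental counts were under the floor, and it passed the low-count filter only through the OE groups, so its call is not read. None of 13 effectors was called in HCT116, and none of the receptor kinases, arrestins and other modulators was called in either line, with 15 tested in HCT116 and 14 in SW480.

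Among 41 receptors for lipids, proteases, peptides and amines, 31 were tested in HCT116. In CD44s-OE against parental cells, 3 were called higher, where 2.71% of all genes were. GPER1, a membrane estrogen receptor, had 634 and 672 counts in CD44s-OE and 316 and 266 counts in CD44v6-OE, against 230 and 160 counts in parental cells (log2 fold change 1.77, SE 0.23, adjusted p = 0.0044 by edgeR). CXCR4, the receptor of the chemokine CXCL12, had 58 and 63 counts in CD44s-OE and 22 and 30 counts in CD44v6-OE, against 17 and 12 counts in parental cells (log2 fold change 2.07, SE 0.45, adjusted p = 0.0272 by edgeR). ADRA2A, an adrenergic receptor coupled to Gi, had 10 and 13 counts in CD44s-OE and 4 and 2 counts in CD44v6-OE, against 1 and 1 counts in parental cells (adjusted p = 0.0697 by edgeR). Its counts outside CD44s-OE were under the floor. It passed the low-count filter only through CD44s-OE, so its call there is not read.

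The adhesion receptor ADGRF1 was the only one called between the isoforms in HCT116, with 280 and 394 counts in CD44s-OE against 1547 and 1686 counts in CD44v6-OE (log2 fold change -2.21, SE 0.24, adjusted p = 0.0137 by edgeR). Over all genes, 0.288% were called there in either direction.

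In SW480, 25 receptors were tested and 2 were called, both higher in CD44s-OE than in parental cells. Over all 17539 genes tested, 244 were called higher there. F2RL3, the thrombin receptor PAR4, had 116 and 117 counts in CD44s-OE and 63 and 32 counts in CD44v6-OE, against 16 and 14 counts in parental cells (log2 fold change 2.78, SE 0.47, adjusted p = 0.0112 by edgeR). LPAR3, a receptor of lysophosphatidic acid, had 40 and 24 counts in CD44s-OE and 54 and 14 counts in CD44v6-OE, against 2 and 4 counts in parental cells (adjusted p = 0.074 by edgeR). Its parental counts were under the floor, and it passed the low-count filter only through the OE groups, so its call is not read.

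Between the parental lines, where 16.1% of all genes were called higher in SW480 and 12.9% lower, partners of the RGS proteins were called in both directions. Of 14 alpha subunits tested, 2 were called higher in SW480 and 2 lower, near the shares of all genes. GNAO1, the Go subunit of neurons, and GNAL, an olfactory subunit that drives adenylyl cyclase, were higher, at log2 fold changes of 8.58 and 2.04. GNAZ, the Gz subunit on which RGS20 acts, and GNA15 of the Gq class were lower, at -2.46 and -2.16 (adjusted p by edgeR of 5.1e-10, 7.66e-05, 2.14e-07 and 0.00628 for the 4 genes). Genes named for this contrast were chosen after their values were seen.

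Of 13 beta and gamma subunits tested between the parental lines, 3 were called higher in SW480 and 2 lower. GNG11 was among the higher ones, with 438 and 960 counts in parental SW480, against 0 and 4 counts in parental HCT116. Of 13 effectors, 1 was called higher and 2 lower. PLCB1 was among the lower ones, with 0 and 5 counts in parental SW480, against 293 and 293 counts in parental HCT116. Of 15 kinases, arrestins and modulators, 4 were called higher and 0 lower. Of 34 receptors, 3 were called higher and 14 lower, where the list's median log2 fold change was -0.91, against 0.04 over all genes tested. CXCR4 was among the higher ones, with 1408 and 2919 counts in parental SW480, against 17 and 12 counts in parental HCT116.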

How the data were processed

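PolyA RNA of 12 libraries was sequenced in pairs on DNBSEQ. Per the submitters' processing notes, the authors used STAR 2.7.9a, featureCounts of Subread 2.0.3, hg19 and DESeq2 1.30.1. The deposited counts are whole reads per gene, with both reads of a pair counted by strand. The authors' deposited variance-stabilized log2 values were used in 1 alternative.

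The 6 libraries of a line were fitted by themselves with edgeR 4.0.16 (filterByExpr, TMM, robust quasi-likelihood test, Benjamini-Hochberg over all genes tested), as were all 12 libraries for comparisons between lines, where the line difference had no minimum fold change. CPM are TMM-scaled over all libraries, and log2 CPM has a prior count of 2. The script was tested on simulated data. The named genes are the 9 RGS genes, up to 4 genes per list and direction called within a line, the 5 genes most like RGS4 and RGS5, and the nearest neighbours. Members and lists were chosen with earlier results of these data known. Alternatives used R 4.3.3, limma 3.58.1 and DESeq2 1.42.0, other filters, scaling and thresholds, and 1 library left out. Replicate numbers did not pair the libraries. Promoters came from RefSeq (GRCh38.p14), and RGS20 was left out there. One receptor gene's result is not reported here.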

Additional observations from a re-analysis of the deposited data

Results flagged for a closer look

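Among the 9 RGS genes and the G protein genes named, 1 had a CD44v6-OE effect that differed between the lines by a test of the difference itself. Over all genes tested, 0.409% did. LPAR3 differed by 3.60 on the log2 scale, SW480 minus HCT116 (SE 0.76, adjusted p = 0.0897, edgeR). It had 54 and 14 counts in SW480 CD44v6-OE against 2 and 4 counts in SW480 parental cells, and 1201 and 1186 counts in HCT116 CD44v6-OE against 1347 and 1294 counts in HCT116 parental cells. The 2 SW480 parental libraries were at or under the floor of 6 counts. No group held the 4 libraries that a test for a stray library needs.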

How the results depend on the processing

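The count of called RGS genes kept within 1.5 times its value under every alternative for HCT116 CD44s-OE against parental cells (2 to 3) and for SW480 CD44s-OE against CD44v6-OE (0). For HCT116 CD44v6-OE against parental cells it was 0 with limma on the variance-stabilized values, where RGS4 was at 1.19 and RGS5 at 1.09, under the minimum fold change, and the cause was not tested. For parental SW480 against parental HCT116 it was 3 with limma, which lost RGS4 and RGS5, and for the line difference it was 1 with limma, RGS4. With 1 library left out, the counts ranged from 0 to 2 for HCT116 CD44s-OE against CD44v6-OE, from 0 to 2 for HCT116 CD44v6-OE against parental, from 0 to 1 for SW480 CD44s-OE against parental, from 0 to 1 for SW480 CD44v6-OE against parental and from 5 to 6 between the parental lines. With a group cut to 1 library, that library is assumed to vary like the others.

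With the replicate number as a block, the count was 3 for HCT116 CD44s-OE against parental cells, 1 against CD44v6-OE, 2 for HCT116 CD44v6-OE against parental cells, 0 in SW480 and 5 between the parental lines, the same as without it. Same-numbered libraries correlated between -0.25 and 0.25 over 9385 genes, so the numbers were not taken as pairs.

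Counts over all genes moved more. In HCT116 they were 24 to 141 (50 as reported) for CD44s-OE against CD44v6-OE, 123 to 2455 (536) for CD44s-OE against parental and 82 to 352 (135) for CD44v6-OE against parental, and with 1 library left out 7 to 326, 136 to 805 and 7 to 369. In SW480 they were 85 to 371 (179), 124 to 828 (356) and 14 to 289 (73) in the same order, and with 1 library left out 38 to 321, 79 to 809 and 13 to 344. Between the parental lines they were 2511 to 11914 (5670), and for the line difference 38 to 464 (80) and, with 1 library left out, 17 to 256. On the variance-stabilized scale, the 5 genes most like RGS4 were the same 5, and 1 of the 5 most like RGS5 was. Depth limited RGS4 and RGS20 in SW480, whose counts of at most 5 lay under the floor.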
